A study of Mus musculus with 6 samples.

Results

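The *Nduf* genes encode the nuclear subunits of respiratory complex I and some of the factors that assemble it. They were taken by name: every gene symbol that starts with *Nduf* in the 6 count tables was a member, which gave 45 of the 24421 gene symbols. Of these, 38 carry a subunit name (*Ndufa*, *Ndufb*, *Ndufc*, *Ndufs* or *Ndufv*) and 7 are assembly factors (*Ndufaf1* to *Ndufaf7*). RNA-Seq was performed on 3T3-L1 adipocytes, a mouse fibroblast line that forms fat cells in culture and whose strain the labels give as C57BL/6. All cells were differentiated with insulin (870 nM), a thiazolidinedione (TZD, 5 µM), dexamethasone (Dex, 1 µM) and IBMX (500 µM), the last of which, with Dex, was left out from day 3. On day 7 they received 100 pfu/cell of an adenovirus with *LacZ* (AdLacZ, control) or with a codon-optimized mouse *Lmo3* (AdLmo3), and RNA was collected 72 h later from 3 separate infections per virus. LMO3 is a LIM domain protein without DNA binding of its own, and the study asked how it alters mature fat cells. Both groups therefore carry an adenovirus, and cells without virus were not analysed here.

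Complex I (NADH:ubiquinone oxidoreductase) is the entry point of NADH into the respiratory chain of the inner mitochondrial membrane. Its matrix arm takes electrons from NADH through a flavin and a chain of iron-sulfur clusters to ubiquinone (coenzyme Q), and its membrane arm pumps protons. A conserved core, in part encoded by mitochondrial DNA, carries out the reaction, while accessory subunits surround it and assembly factors leave the complex once it is complete. White fat cells use the chain to oxidise fatty acids and pyruvate and to supply ATP for lipid synthesis and secretion.

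The libraries held 28035639 to 38332335 counts on genes, and levels are given as CPM, counts scaled to a common library size, with TMM factors of 0.964 to 1.04. Of the 45 *Nduf* genes, 44 passed the filter on low counts in the fit across all genes. *Ndufs5*, an accessory subunit of the membrane arm, had 0 counts in all 6 libraries, and 15.7% of its stretches of 75 bases (the read length) also occur in *BC002163*, which had 42 to 68 counts. Whether reads of *Ndufs5* were counted elsewhere was not tested. *Lmo3* itself had 0 counts in all 6 libraries, so the labels could not be checked by the transgene. None of the 7 mitochondrially encoded complex I subunits had a symbol in the tables, and their mRNAs were not analysed here. The protein-coding genes *Ndufb1*, *Ndufb4b* and *Ndufb4c* were not found there either, by symbol or by listed synonym, so not every nuclear *Nduf* gene is covered. *Ndufaf8*, listed under the older symbol *1810043H04Rik* and therefore no member by name, had a log2 fold change of 0.05 ± 0.0986 (adjusted p = 0.810). Here and throughout, errors of log2 fold changes are SE.

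No *Nduf* mRNA changed with AdLmo3 at an adjusted p of 0.05 (0 of 44 tested; edgeR's quasi-likelihood test), where 547 of the 12766 tested genes did (4.28%, of which 2.71% were higher and 1.57% lower). At an unadjusted edgeR p under 0.05, 8 *Nduf* genes had higher levels in AdLmo3 and 0 had lower levels, against 11.1% and 9.54% of all tested genes. The 8 were *Ndufaf7*, *Ndufc2*, *Ndufa8*, *Ndufaf3*, *Ndufv2*, *Ndufb10*, *Ndufc1* and *Ndufv3*, in order of p. Fold changes of the 44 tested genes were small, from -0.14 (*Ndufaf4*) to 0.31 (*Ndufaf3*) on the log2 scale, with a median of 0.06 beside 0.00 over all tested genes. Of the 44, 30 had a log2 fold change above 0, compared with 50.4% of all tested genes. Every library of one group lay outside the range of the other for 12 genes with higher and 1 gene with lower levels in AdLmo3, where 13.3% and 13.2% of all tested genes did so in those directions. The 95% interval of the fold change stayed within 1.2-fold in either direction for 24 of the 44, against 24.3% of all tested genes. Without TMM factors, on library totals alone, the median of all tested genes moved by -0.07 and the split of the 44 *Nduf* genes turned from 30 higher and 14 lower to 21 higher and 23 lower. Relative to the median of all genes, 30 of the 44 lay above it with either scaling. DESeq2 called 2 of the 44, *Ndufa8* and *Ndufv2*, both higher in AdLmo3, where it called 8.55% of 12917 genes (5.19% higher and 3.35% lower).

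**Figure D1:**
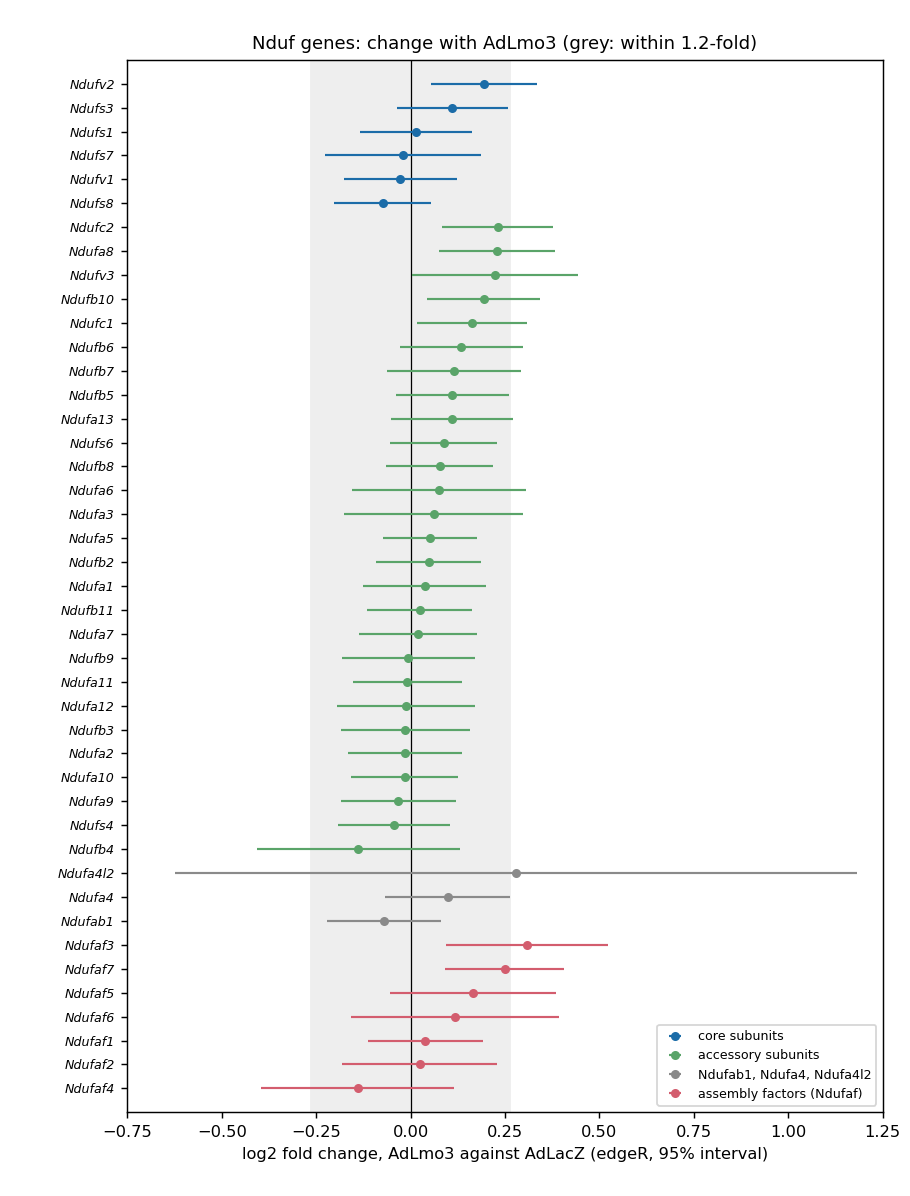
Log2 fold change (AdLmo3 against AdLacZ, horizontal axis) of 43 of the 44 tested *Nduf* genes (vertical axis), grouped as core subunits, accessory subunits, 3 members apart and assembly factors; points are edgeR estimates, bars 95% intervals and the grey band marks 1.2-fold in either direction. Most points lie within the band, 24 intervals lie wholly inside it, and the widest interval is that of *Ndufa4l2*.

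The core subunits showed no common direction: 4 of 7 had a log2 fold change above 0, with a median of 0.01. *Ndufv2*, an iron-sulfur protein next to the NADH-binding site (chr17:66078638-66101559, minus strand, GRCm38), was the one core subunit with an unadjusted edgeR p under 0.05. It had 209, 214 and 215 CPM in the AdLacZ libraries and 239, 251 and 241 CPM in the AdLmo3 libraries. All 3 AdLmo3 libraries lay above all 3 AdLacZ libraries, and the log2 fold change was 0.19 ± 0.0606 (95% interval 0.06 to 0.33, adjusted p = 0.120). DESeq2 gave *Ndufv2* 0.20 with an adjusted p of 0.0472. The 250 bases before its annotated start are shown because *Ndufv2* leads the core subunits. They are 68.0% G and C, overlap no exon of another gene, and hold the letters GGGCGG, a common SP factor motif, once on each strand (capitals).
Ndufv2, chr17:66101560-66101809, minus strand, RefSeq promoter table on GRCm38.p6: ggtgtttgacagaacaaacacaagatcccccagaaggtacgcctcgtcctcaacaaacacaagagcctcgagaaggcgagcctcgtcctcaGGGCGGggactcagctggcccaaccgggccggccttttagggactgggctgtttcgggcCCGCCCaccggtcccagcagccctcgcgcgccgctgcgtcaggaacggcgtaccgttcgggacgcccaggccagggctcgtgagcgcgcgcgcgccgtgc

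*Ndufv1*, which binds NADH and the flavin beside *Ndufv2*, had 378, 397 and 364 CPM with AdLacZ and 368, 376 and 374 CPM with AdLmo3, a log2 fold change of -0.03 ± 0.0651. The groups overlapped. *Ndufs1*, the largest iron-sulfur protein of this module, had 359, 352 and 382 CPM against 366, 372 and 366 CPM (0.01 ± 0.0645). Thus the other core subunits of the NADH module, *Ndufv1* and *Ndufs1*, had estimates near 0, although their differences from *Ndufv2* were not tested. Nearer to coenzyme Q, *Ndufs3* had 145, 149 and 137 CPM against 151, 161 and 154 CPM (0.11 ± 0.0641, adjusted p = 0.384). All its AdLmo3 libraries lay above all AdLacZ libraries, but it did not pass the test, and 28.2% of the 75-base stretches of *Ndufs3* also occur in other genes, mainly *Gm12251*. *Ndufs7*, which holds the last iron-sulfur cluster before the quinone, had 111, 131 and 112 CPM against 112, 127 and 110 CPM (-0.02 ± 0.0900). *Ndufs8*, another carrier of iron-sulfur clusters, had 81.6, 77.1 and 77.8 CPM with AdLacZ and 74.9, 75.0 and 74.8 CPM with AdLmo3. It was the 1 *Nduf* gene whose AdLmo3 libraries all lay below the AdLacZ libraries, with a log2 fold change of -0.07 ± 0.0558 (adjusted p = 0.516).

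Among the 27 tested accessory subunits, 18 had a log2 fold change above 0 and 9 below, with a median of 0.05, and none passed the test. The 5 largest estimates belonged to *Ndufc2*, *Ndufa8*, *Ndufv3*, *Ndufb10* and *Ndufc1*. *Ndufc2*, a membrane arm subunit (chr7:97400003-97407802, plus strand), had 78.2, 76.9 and 73.7 CPM with AdLacZ and 85.0, 94.6 and 88.9 CPM with AdLmo3. Its groups did not overlap, and the log2 fold change was 0.23 ± 0.0643 (95% interval 0.08 to 0.38, adjusted p = 0.0909). Its partner *Ndufc1* (chr3:51404677-51408988, minus strand) had 43.5, 44.0 and 44.3 CPM against 49.8, 51.6 and 46.1 CPM, a log2 fold change of 0.16 ± 0.0633 (adjusted p = 0.193). Both genes of the *Ndufc* name thus had higher levels in every AdLmo3 library, short of the threshold. The 250 bases before the start of *Ndufc2*, the accessory subunit with the lowest p, are shown for comparison with those of *Ndufv2*. They are 45.2% G and C, overlap no exon of another gene and hold 1 CCAAT (capitals) and no GGGCGG.
Ndufc2, chr7:97399753-97400002, plus strand, RefSeq promoter table on GRCm38.p6: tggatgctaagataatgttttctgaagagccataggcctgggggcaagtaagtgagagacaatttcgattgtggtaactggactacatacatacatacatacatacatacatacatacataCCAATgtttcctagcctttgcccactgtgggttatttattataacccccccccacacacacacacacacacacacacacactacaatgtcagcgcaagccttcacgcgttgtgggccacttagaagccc

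*Ndufa8* (chr2:36036326-36049406, minus strand), a cysteine-rich subunit on the intermembrane-space face of the membrane arm, had 110, 110 and 99.9 CPM with AdLacZ and 123, 129 and 121 CPM with AdLmo3. The groups did not overlap (log2 fold change 0.23 ± 0.0665, 95% interval 0.08 to 0.38, adjusted p = 0.1005), and DESeq2 gave 0.23 with an adjusted p of 0.0454. *Ndufb10* (chr17:24722060-24724478, minus strand), a cysteine-rich subunit of the same face, had 161, 159 and 148 CPM against 178, 184 and 174 CPM. It did not overlap either (0.19 ± 0.0653, adjusted p = 0.145). *Ndufv3* (chr17:31520115-31531331, plus strand), a small subunit of the NADH module, had 162, 207 and 187 CPM against 216, 227 and 207 CPM. Here AdLacZ replicate 2 reached the lowest AdLmo3 library, and the log2 fold change was 0.22 ± 0.0961 (adjusted p = 0.236).

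At the other end, *Ndufb4* of the membrane arm had 19.0, 14.8 and 17.0 CPM with AdLacZ and 13.8, 16.1 and 16.3 CPM with AdLmo3 (-0.14 ± 0.117). Its groups overlapped, and 35.2% of its 75-base stretches occur in other genes, mainly *Ndufb4c*, so that its level is uncertain. *Ndufs4*, which is added late to the NADH module and whose loss causes mitochondrial disease, had 75.0, 69.0 and 74.2 CPM against 71.0, 73.6 and 67.0 CPM (-0.04 ± 0.0648). *Ndufa9*, a nucleotide-binding subunit at the junction of the arms, had 387, 372 and 387 CPM against 380, 356 and 385 CPM (-0.03 ± 0.0658). *Ndufa10*, which resembles a nucleoside kinase, had 215, 226 and 227 CPM against 224, 220 and 216 CPM (-0.02 ± 0.0614). *Ndufa2*, a thioredoxin-like subunit of the matrix arm, had 90.7, 98.4 and 90.3 CPM against 93.3, 95.3 and 87.7 CPM (-0.02 ± 0.0659). All 5 of these pairs of groups overlapped. The remaining 17 accessory subunits were *Ndufa1*, *Ndufa3*, *Ndufa5*, *Ndufa6*, *Ndufa7*, *Ndufa11*, *Ndufa12*, *Ndufa13*, *Ndufb2*, *Ndufb3*, *Ndufb5*, *Ndufb6*, *Ndufb7*, *Ndufb8*, *Ndufb9*, *Ndufb11* and *Ndufs6*. Their log2 fold changes ran from -0.01 to 0.13, with 13 above and 4 below 0 and adjusted p from 0.335 to 0.979. Of these 17, *Ndufb5*, *Ndufb6* and *Ndufb8* did not overlap between the groups and were higher in AdLmo3, against 13.3% of all tested genes. Sorted by place, the 16 tested matrix arm subunits had a median log2 fold change of 0.02 (9 above 0) and the 18 tested membrane arm subunits one of 0.07 (13 above 0). This grouping was drawn up after values had been seen and was not tested.

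**Figure D2:**
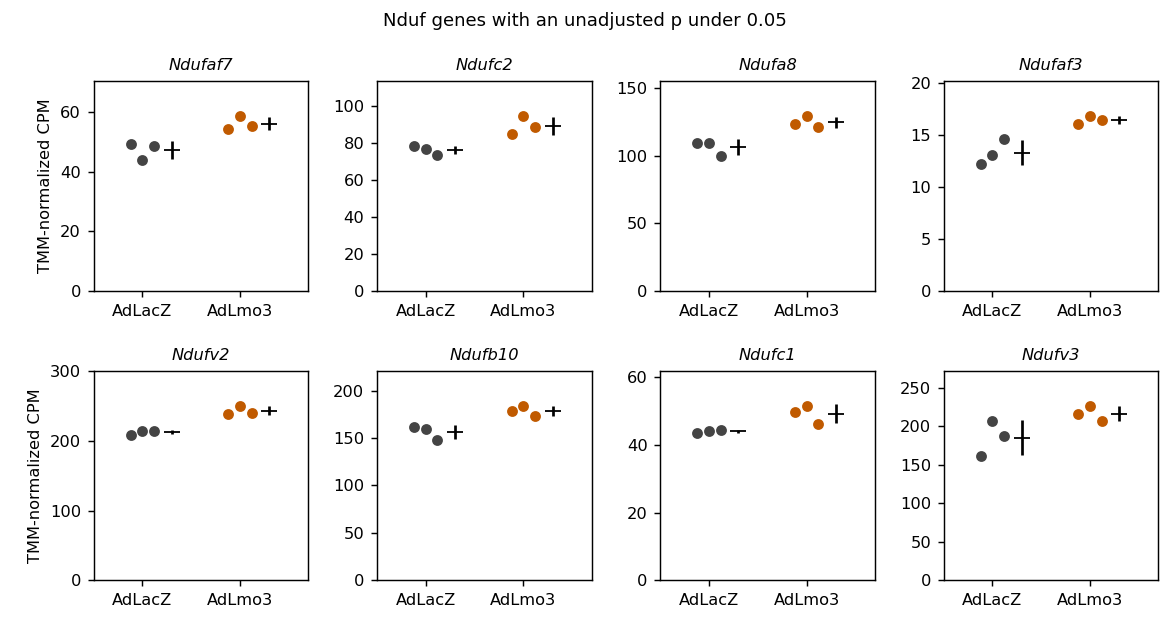
TMM-normalized CPM (vertical axes, from 0) in each library for the 8 *Nduf* genes with an unadjusted edgeR p under 0.05; dots are single libraries (grey AdLacZ, orange AdLmo3), and the cross beside them is the mean ± SD of 3. The groups are apart in 7 genes and overlap in *Ndufv3*.

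There were 3 members with subunit names that structural work sets apart. *Ndufab1*, the mitochondrial acyl carrier protein, which also serves fatty acid and lipoic acid synthesis, had 33.6, 34.2 and 31.4 CPM with AdLacZ and 30.7, 32.02 and 31.8 CPM with AdLmo3 (-0.07 ± 0.0656, adjusted p = 0.612). *Ndufa4*, which is now counted as a subunit of cytochrome c oxidase, had 224, 201 and 197 CPM against 218, 218 and 230 CPM (0.10 ± 0.0723, adjusted p = 0.506). Neither separated the groups. *Ndufa4l2*, a hypoxia-induced relative of *Ndufa4*, was close to the detection limit, with 8 to 16 counts per AdLacZ library and 9 to 21 per AdLmo3 library, or 0.236 to 0.450 and 0.324 to 0.570 CPM. A count of 3, the smallest level set as detectable here, corresponds to 0.0783 to 0.107 CPM, for counting error only.

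The assembly factors had the widest spread, but their median SE was also larger, 0.0933 beside 0.0658 for the 37 tested subunit names. What part of the spread this makes up was not tested. Of the 7 assembly factors, 6 had a log2 fold change above 0, and their median was 0.12, beside 0.05 for the subunit names. Whether the 2 kinds differ was not tested, and the median of the assembly factors ran from 0.06 to 0.19 when 1 library was left out at a time (0.06 without AdLacZ replicate 3, 0.07 without AdLmo3 replicate 2, 0.19 without AdLacZ replicate 1 or AdLmo3 replicate 1). *Ndufaf7*, an arginine methyltransferase that acts early in assembly (chr17:78937136-78948052, plus strand), had 49.2, 43.8 and 48.5 CPM with AdLacZ and 54.4, 58.6 and 55.2 CPM with AdLmo3. The groups did not overlap, and its adjusted p was the lowest of the 44 (log2 fold change 0.25 ± 0.0687, 95% interval 0.09 to 0.41, adjusted p = 0.0870). *Ndufaf3* (chr9:108565537-108567434, minus strand), which joins the Q module to the membrane, had 12.2, 13.0 and 14.5 CPM against 16.0, 16.8 and 16.4 CPM. This was the largest fold change of the family, 0.31 ± 0.0933 on the log2 scale (1.24-fold, adjusted p = 0.112), again without overlap.

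*Ndufaf4* (chr4:24898083-24905001, plus strand), which works together with *Ndufaf3*, had 28.8, 28.7 and 27.8 CPM with AdLacZ and 29.9, 21.8 and 25.6 CPM with AdLmo3. The AdLmo3 libraries lay on both sides of the AdLacZ libraries, and the estimate was the lowest of the 44 (-0.14 ± 0.112, adjusted p = 0.540). It moved from -0.03 to -0.26 with the library left out, of which -0.03 was obtained without AdLmo3 replicate 2. *Ndufaf5*, an arginine hydroxylase acting on *Ndufs7*, had 16.6, 16.1 and 15.5 CPM against 17.5, 20.0 and 16.5 CPM (0.17 ± 0.0954). *Ndufaf6*, needed for the first steps in the membrane, had 9.58, 8.45 and 7.85 CPM against 8.50, 9.99 and 9.59 CPM (0.12 ± 0.120). *Ndufaf1*, which helps to build the membrane arm, had 45.5, 46.2 and 47.1 CPM against 44.1, 49.0 and 49.5 CPM (0.04 ± 0.0662). *Ndufaf2*, a late factor related to the subunit *Ndufa12*, had 13.4, 12.8 and 14.04 CPM against 14.4, 13.3 and 13.2 CPM (0.02 ± 0.0889). The groups overlapped for these 4 factors, with adjusted p from 0.380 to 0.921.

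Levels were also compared between genes, as CPM per kb of the shortest principal transcript and averaged over both groups. On this scale the subunits were the abundant mRNAs: the core subunits had a median of 143 CPM per kb (lowest 98.6 for *Ndufs8*) and the accessory subunits one of 128 (16.6 for *Ndufb4* to 411 for *Ndufb9*). The assembly factors had a median level of 14.6 CPM per kb, from 7.46 for *Ndufaf4* to 32.3 for *Ndufaf1*. The highest level of all subunit names was that of *Ndufa4*, at 475 CPM per kb, and the lowest that of *Ndufa4l2*, at 0.401 CPM per kb. Only *Ndufa12*, *Ndufb4*, *Ndufab1* and *Ndufa4l2* among the subunit names lay below the highest assembly factor. *Ndufb9*, *Ndufa12* and *Ndufb4* share 20.3%, 22.01% and 35.2% of their 75-base stretches with other genes, as do *Ndufs3* (28.2%), *Ndufb6* (27.8%) and *Ndufa13* (25.6%), so these levels are uncertain.

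**Figure D3:**
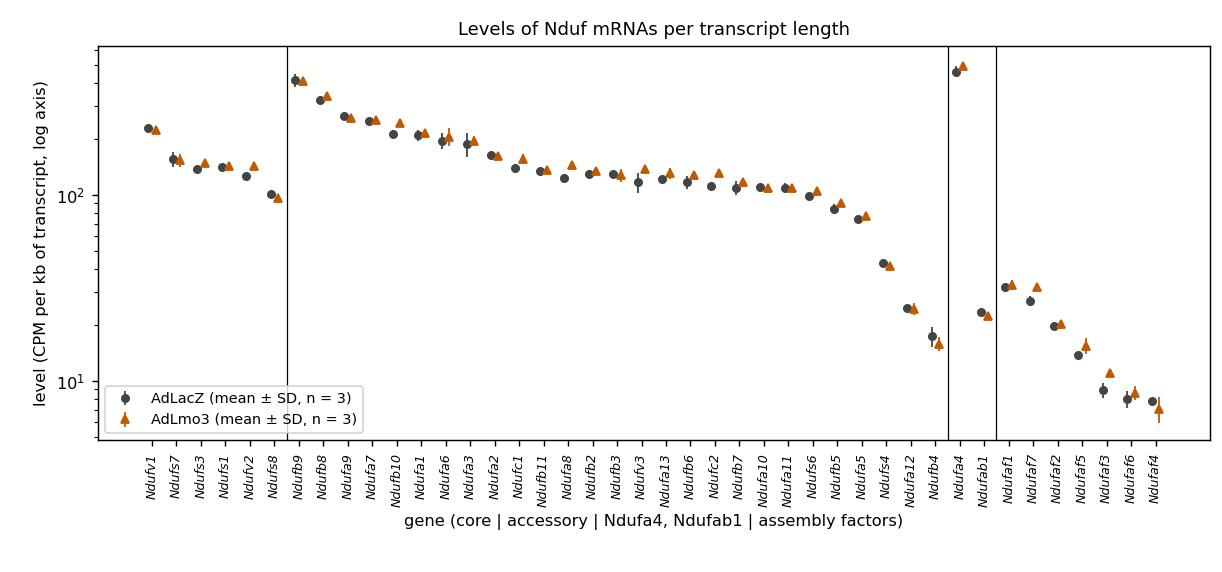
Level of 42 *Nduf* mRNAs (*Ndufa4l2* and *Ndufs5* are among those left out) as TMM-normalized CPM per kb of transcript on a log axis, for AdLacZ (circles) and AdLmo3 (triangles), mean ± SD of 3 libraries. The 7 assembly factors on the right lie between 7.10 and 32.8 CPM per kb, below most subunits.

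Summed over the 44 tested genes, *Nduf* mRNAs made up 5331, 5426 and 5198 TMM-normalized CPM with AdLacZ and 5491, 5686 and 5483 CPM with AdLmo3. The sums of the groups did not overlap. As an unscaled share of all gene counts, however, they took 0.554%, 0.553% and 0.529% with AdLacZ and 0.540%, 0.555% and 0.528% with AdLmo3, and the groups overlapped. The median deviation of the subunits from their gene means was lowest in AdLacZ replicate 3 (-0.08 on the log2 scale) and highest in AdLmo3 replicate 2 (0.08), with -0.02 and 0.00 in AdLacZ replicates 1 and 2 and 0.01 in AdLmo3 replicates 1 and 3. The assembly factors stood at -0.03, -0.08 and -0.02 with AdLacZ and at 0.08, 0.16 and 0.08 with AdLmo3. The median absolute log2 fold change of the 44 was 0.08. These deviations were taken from the mean of all 6 libraries, so they include the difference between the groups and do not measure replicate noise alone. Over all tested genes the median deviation ran from -0.0026 in AdLmo3 replicate 2 to 0.0061 in AdLacZ replicate 1.

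**Figure D4:**
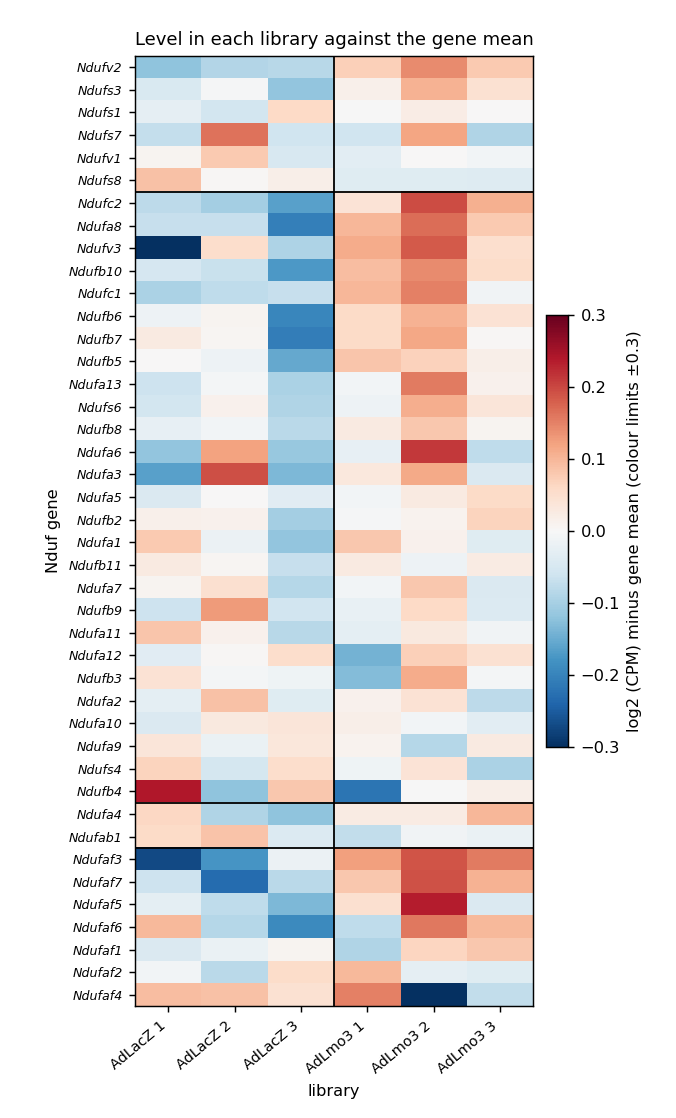
Deviation of each library from the gene's mean on the log2 scale (colour, limits of 0.3 in either direction) for 42 *Nduf* genes in rows (*Ndufa4l2* and *Ndufs5* are among those left out) and the 6 libraries in columns; black lines part core subunits, accessory subunits, *Ndufa4* with *Ndufab1*, and assembly factors. AdLmo3 replicate 2 is the reddest column and AdLacZ replicate 3 the bluest among the subunits.

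Markers of fat cells moved with the virus. Each of the 10 adipocyte markers averaged at least 85.1 CPM in either group. Of these, edgeR called 9 higher in AdLmo3, against 2.71% of all tested genes. *Slc2a4* was not called (0.08 ± 0.0890, adjusted p = 0.675). Over all 10 markers the median log2 fold change was 0.60. Their summed level was 11951 to 12415 CPM with AdLacZ and 17897 to 22129 CPM with AdLmo3. In bulk RNA, more fat cells and more RNA per fat cell cannot be told apart. None of 10 fibroblast or preadipocyte markers was called (6 above 0, 4 below; 16376 to 21243 against 16055 to 24349 CPM). Macrophage and endothelial markers were low: *Adgre1* and *Ptprc* had 0 to 2 and 0 to 1 counts per library, *Cdh5* and *Kdr* 0 to 5 each, and the tested genes of the 2 lists summed to at most 4.58 and 2.33 CPM. The part of the adipocyte markers in the *Nduf* levels was not tested.

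The other genes of the pathway were set beside the family with lists drawn up from textbook membership. Complex I assembly factors with other names were measured for 12 of 13 listed genes. Of the 12, edgeR called 1 higher and 0 lower, against 2.71% and 1.57% of all tested genes. Their median log2 fold change was 0.08, and 8 lay above 0, compared with 50.4% of all tested genes. The one that rose was *Ecsit*, a partner of *Ndufaf1* that also acts in innate immune signalling, at 30.1 ± 0.388 CPM (SD, n = 3) with AdLacZ and 37.6 ± 1.84 CPM with AdLmo3 (0.33 ± 0.0647, adjusted p = 0.0323). Among other settings, its call was lost on library totals and in each of the 6 fits with a library left out, with fold changes of 0.25 and of 0.29 to 0.36. A list for other routes that feed electrons to coenzyme Q, called the other dehydrogenases below, held 12 genes. It includes subunits of succinate dehydrogenase and genes of the electron-transferring flavoproteins. Of the 12, 0 passed edgeR's test, against 4.28% of all tested genes. An unadjusted edgeR p under 0.05 was found for 5, all higher in AdLmo3, against 11.1% of all tested genes in that direction. DESeq2 called 2, where it called 8.55% of 12917 genes. The 12 had a median log2 fold change of 0.14, and 10 lay above 0, compared with 50.4% of all tested genes. The lowest edgeR p was that of *Sqrdl*, sulfide quinone reductase (97.2 ± 5.98 against 116 ± 6.87 CPM, adjusted p = 0.0959).

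For complexes III, IV and V and cytochrome c, 40 of 44 genes were tested. Of the 40, edgeR called 0 higher and 1 lower, against 2.71% and 1.57% of all tested genes. Their median log2 fold change was 0.07, and 34 lay above 0, compared with 50.4% of all tested genes. The gene that fell was *Cox6a2*, the muscle-type isoform of a cytochrome c oxidase subunit, from 10.1 ± 1.56 to 4.33 ± 0.636 CPM (-1.21 ± 0.164, adjusted p = 0.00901). Without AdLacZ replicate 3 it no longer passed, at -1.15. Among 12 regulators of respiratory gene transcription, edgeR called 0 higher and 1 lower, against the same 2.71% and 1.57%. Their median was -0.03, with 4 above 0. At an unadjusted edgeR p under 0.05, 2 had higher and 3 lower levels in AdLmo3, against 11.1% and 9.54% of all tested genes. Besides *Nrf1* and *Ppargc1b*, given below, these were *Esrra* (0.29 ± 0.0922), *Gabpa* (-0.16 ± 0.0609) and *Gabpb1* (-0.19 ± 0.0731). *Nrf1*, a factor that binds many respiratory gene promoters, fell from 29.7 ± 1.21 to 24.0 ± 0.910 CPM (-0.31 ± 0.0697, adjusted p = 0.0495), a call just past the threshold that was lost, among other settings, in edgeR with RLE size factors or no count filter, with limma voom and in all 6 fits with a library left out. *Ppargc1b*, a coactivator of mitochondrial genes singled out after its values were seen, had 13.8 ± 3.59 CPM with AdLacZ and 26.6 ± 7.35 CPM with AdLmo3 (0.94 ± 0.228, adjusted p = 0.0610). It was the 1 regulator called higher by DESeq2, by edgeR with no count filter and in the fit without AdLmo3 replicate 3.

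**Figure D5:**
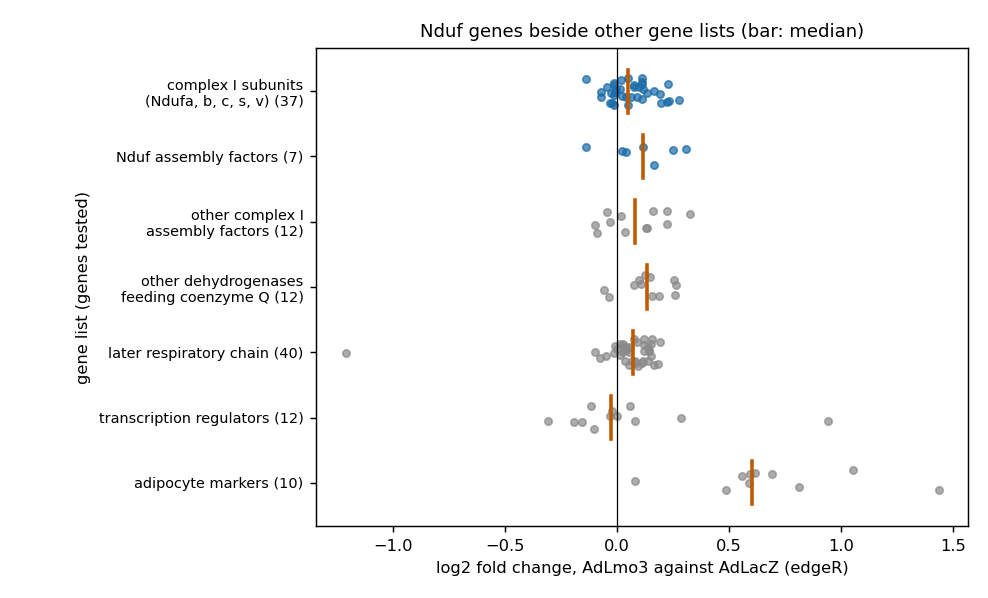
Log2 fold change (AdLmo3 against AdLacZ, horizontal axis) of each tested gene (dots) in the *Nduf* groups and in 5 other lists, with the number of genes in parentheses and the median as a bar. The medians of the *Nduf* groups, 0.05 and 0.12, lie near those of the 3 lists of respiratory genes (0.07 to 0.14), the regulators lie at -0.03, and the adipocyte markers lie to the right at 0.60.

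The members lie on 16 chromosomes, and 16 of the 45 (35.6%) start within 1000 bp of the start of a gene read from the opposite strand, compared with 7.94% of 21951 protein-coding genes of the annotation. These 21951 include genes not expressed here, and the share among expressed genes was not computed. In such head-to-head pairs a short stretch of DNA can serve as promoter for both genes. *Ndufaf7* starts 70 bp from *Cebpz*, which had a log2 fold change of -0.10. *Ndufa8* starts 52 bp from *Morn5* (-0.48 ± 0.354) and *Ndufv3* 135 bp from *Wdr4* (-0.15). Of the 15 partners that were tested, 0 were called by edgeR, and 2 had an unadjusted p under 0.05, against 20.6% of all tested genes. These 2 were *Esf1* beside *Ndufaf5* (-0.29 ± 0.0784) and *Fam126b* beside *Ndufb3* (0.21 ± 0.0836). The log2 fold changes of the 15 ran from -0.48 to 0.21 with a median of -0.08. In 2 of the 15 pairs both genes had the same sign, and no expected share was computed for this count.

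Promoter sequences of 39 members were in the RefSeq table (GRCm38.p6; 250 bases before to 50 after the start); among those not matched were *Ndufs1*, *Ndufaf6*, *Ndufa2*, *Ndufb9* and *Ndufa4l2*. Their median content of G and C was 59.3%, beside 52.7% over all 27025 windows, and the motif shares are therefore also given over 9367 windows of genes with at least 100 counts in all. The full motif of NRF1 (GC followed by GCATGCGC) occurred in 3 of 39 (7.69%; 0.977% of all windows and 2.22% of those of expressed genes), and GCATGCGC alone in 5 (12.8%; 2.80% and 5.76%). The letters AAGATGG, part of the YY1 motif, occurred in 7 (17.9%; 6.48% and 7.57%). CCGGAAG of ETS factors, among them the GABP subunits, occurred in 5 (12.8%; 9.12% and 18.8%), GGGCGG in 20 (51.3%; 35.9% and 65.5%) and CCAAT in 13 (33.3%; 37.9% and 39.5%). TCAAGGTCA, bound by estrogen-related receptors, and the PPAR direct repeat, AGGTCA and its copy parted by 1 base, were in none of these 39 windows and are rare elsewhere (0.407% of all windows and 0.235% of those of expressed genes for the first, 0.0444% and 0.0427% for the repeat). Both strands were searched, each motif was counted without regard to overlap with another, and a match is only a match of letters. The NRF1 windows are shown because *Nrf1* is the regulator called lower by edgeR. The capitals mark the motif, and positions are on GRCm38.p6.
Ndufaf4, chr4:24897960-24897989, plus strand: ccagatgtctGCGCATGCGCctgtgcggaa
Ndufaf5, chr2:140170652-140170681, plus strand: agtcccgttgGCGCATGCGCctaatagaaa
Ndufa11, chr17:56717692-56717721, plus strand: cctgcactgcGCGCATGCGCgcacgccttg

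These 3 genes had log2 fold changes of -0.14, 0.17 and -0.01, and none passed the test. The AAGATGG windows share a feature that the search did not ask for: in all 7 the match lies 23 to 39 bases after the start, on the strand of the gene, and its ATG is the annotated start codon. The capitals mark the motif, and whether all bases after the start codon are coding was not checked.
Ndufc1, chr3:51408916-51408944, minus strand: gcctgcggaacAAGATGGcgccgtccgta
Ndufa3, chr7:3617384-3617412, plus strand: ccgccaagaacAAGATGGccgggagtaag
Ndufa9, chr6:126849098-126849126, minus strand: cattgtgggagAAGATGGcggccgccgtc
Ndufb8, chr19:44555393-44555415, minus strand: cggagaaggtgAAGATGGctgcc
Ndufs4, chr13:114388045-114388070, minus strand: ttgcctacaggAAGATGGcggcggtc
Ndufs6, chr13:73328433-73328460, minus strand: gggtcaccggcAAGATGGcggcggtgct
Ndufs7, chr10:80249462-80249490, plus strand: aggccgaggccAAGATGGcggcgctggcg

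The 7 genes had log2 fold changes from -0.04 (*Ndufs4*) to 0.16 (*Ndufc1*), with 4 above and 3 below 0 and a median of 0.06, the same to 2 decimals as that of the 44. *Yy1* itself had 117 ± 5.45 CPM with AdLacZ and 109 ± 7.27 CPM with AdLmo3 (-0.10 ± 0.0727, adjusted p = 0.478). Sets by motif were chosen after values had been seen and were not tested.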

How the data were processed

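RNA-Seq counts of 3 AdLacZ and 3 AdLmo3 libraries were used, grouped by the sample labels. The authors deposited raw counts of reads (75 bp, single) per gene symbol, after mapping with STAR 2.5.0b to mm10 (submitters' processing notes); the counting program, its strand setting and the annotation are not given in the sources used here. Reads on no gene (7.15% to 8.94%) or several (0.476% to 0.543%) were left out. Replicates differed by more than sampling noise (chi-square per degree of freedom 22.9 to 61.6).

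The counts were analysed with edgeR 4.0.16 in R 4.3.3 (filterByExpr, TMM, quasi-likelihood test, group as the only term). P-values were adjusted by the Benjamini-Hochberg method across 12766 genes. SE is the log2 fold change divided by the root of its F statistic. An exact permutation test of 3 against 3 cannot give a two-sided p below 0.1 and was not used. Alternatives were DESeq2 1.42.0, limma 3.58.1 (voom), other scaling and filters, the block, and leaving out each library. The steps were also run on simulated counts, with the same spread for every gene and no shift shared between genes. That run does not bear on small changes shared by a family. Lengths, neighbours and shared 75-base stretches came from GENCODE vM21 (GRCm38); opposite-strand exons overlap 16 members, and without a known strand setting their reads cannot be told apart. Named with values were the core subunits (1 is not reported here), the assembly factors, the 5 highest and 5 lowest fold changes of accessory subunits, 3 members apart and, in each list, the called genes or the lowest p. Members and lists were chosen with earlier results of these data known.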

Additional observations from a re-analysis of the deposited data

How the results depend on the processing

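No *Nduf* gene was called under 6 of the 7 other settings or with any 1 library left out (0 in each of the 6 fits); the exception was DESeq2, with 2. Over all genes DESeq2 called 1104 and the fits with a library left out 77 to 501. On library totals the median log2 fold change was -0.023 for the subunits and 0.043 for the assembly factors, and that of *Ndufs1*, *Ndufaf2* and *Ndufaf1* turned to -0.059, -0.049 and -0.036. Leaving out 1 library gave medians of 0.036 to 0.068 for the subunits and 0.057 to 0.19 for the assembly factors, and values on both sides of 0 for *Ndufs1* (-0.0089 to 0.049), *Ndufs7* (-0.088 to 0.060), *Ndufv1* (-0.057 to 0.0062), *Ndufaf2* (-0.016 to 0.057), *Ndufa2* (-0.040 to 0.026), *Ndufa9* (-0.054 to 0.0029) and *Ndufa4l2* (-0.050 to 0.52). Called genes among the other assembly factors were 0 on library totals and with the replicate block, 2 with DESeq2, and 0 with any library left out; among the other dehydrogenases 2 with DESeq2 and otherwise 0; among the regulators 0 with size factors of the RLE type, voom or the replicate block, 1 higher and 0 lower with no count filter, 2 with DESeq2 (1 higher, 1 lower), and 0 to 1 with a library left out; and among the later chain 0 to 1 with a library left out. The cause was not tested. Deviations of same-numbered libraries correlated by 0.03, 0.18 and 0.18 across genes, and those of differently numbered libraries by -0.26 to 0.15. These ranges overlap, and whether the shared numbers mark pairs was not settled by them. Group was kept as the only term, with the replicate block as an alternative. With the replicate block 498 genes and 0 *Nduf* genes were called by edgeR, and the adjusted p was 0.0526 for *Ecsit* and 0.0786 for *Nrf1*. Of the *Nduf* results, changes under 1.2-fold are near the limit of what 3 libraries per group resolve, as the median SE of 0.07 on the log2 scale shows.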
